A study of Homo sapiens with 6 samples.

Results

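The resting state of MDA-MB-453 cells was described from the 3 libraries that received scrambled siRNA, out of 6 libraries in the series. MDA-MB-453 is an established human cell line from a HER2+ breast cancer, and the labels give it a WT genotype. The cells were grown in RPMI with 10% fetal bovine serum at 37 °C in 5% CO2, transfected with siRNA that targets no gene, and sequenced from 300 ng of total RNA per library. The study's own contrast is with *DUSP6* siRNA, which was given to the other 3 libraries, and those were not used. The libraries were taken by their label and the gene lists were drawn up with earlier results of these data known. Every one of the 22807 genes listed was described by its level, its rank and its spread over the 3 libraries. No group was compared with another, so there is no p-value in what follows. The study describes 3 different scrambled siRNAs, and which of them entered which library is not given in the sources used here. Differences between the libraries and differences between the siRNAs therefore cannot be told apart. All cells carried the transfection reagent and an siRNA, so the profile is that of transfected and not of untouched cells, and of 1 cell line.

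The deposited value of a gene is its reads divided by a scaled library size, multiplied by 1e6, and it is called the value here. A level per kilobase is that value divided by the length of the gene's canonical transcript in kilobases, and only levels per kilobase were used to order genes. The recovered depth was 76305430, 56542154 and 85729785 reads in replicates 1 to 3. One read was worth a value of 0.0149, 0.0192 and 0.0121 in them, so 0 reads in a library allow a value of up to 0.0446, 0.0575 and 0.0362 (3 reads, counting error only). Across the 12710 genes whose mean value reached 1, the median ratio of the variance between libraries to that of counting error was 26.9, so counting error was the smaller part for the median gene. Whether they came from separate cultures is not given in the labels. Genes that share more than 5% of their transcript with a neighbour are uncertain, and of those named below these are *B3GNT9*, *CREB3L4*, *ESRP2*, *FDPS*, *FGD5-AS1*, *FTH1*, *HOXB3*, *HOXC13*, *LRRC59*, *LTB4R*, *MIEN1*, *NRG4*, *PGR*, *PTPMT1*, *TAGLN* and *VIM*.

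HER2, the product of *ERBB2*, is a receptor tyrosine kinase with no known ligand of its own. It pairs with the other ERBB receptors, above all with the neuregulin receptor ERBB3, and signals through RAS and ERK and through PI3K and AKT. FOXA1 opens chromatin for steroid receptors in luminal cells of the breast. FGFR4 is a receptor for fibroblast growth factors. Breast cancers that lack the estrogen receptor but keep luminal genes include the apocrine tumors.

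The 4 marker genes of the line were all expressed in every library. *FGFR4* (Entrez gene 2264, chromosome 5, 177086915 to 177098144 in GRCh38) had values of 1142, 1451 and 1714 in replicates 1 to 3. It was the highest of the 4 per kilobase, at 464 ± 92.7 (SD, n = 3), and stood at rank 90 of the 21400 genes with a transcript length. *ERBB2* (Entrez gene 2064, chromosome 17, 39688094 to 39728658) had values of 1001, 1068 and 882, a level per kilobase of 216 ± 20.7 (SD, n = 3) and rank 225. Its rank was 225, 191 and 268 in the single libraries. For *FOXA1* (Entrez gene 3169, chromosome 14, 37589552 to 37595249) the values were 569, 611 and 412, and its rank per kilobase was 377. *ERBB3* (Entrez gene 2065, chromosome 12, 56080108 to 56103505) was measured at 283, 346 and 291 and rank 1328. The lowest *FGFR4* library per kilobase exceeded the highest *ERBB2* library, and the ratio of the 2 genes ran from 1.68 in replicate 1 to 2.86 in replicate 3. *ERBB2*, *ERBB3* and *FOXA1* differed by less than 1.5-fold between the highest and the lowest library and *FGFR4* by slightly more, being lowest in replicate 1 and highest in replicate 3. A spread past 1.5-fold, measured on log2(value + 1), was seen in 15% of the 12710 genes whose mean value reached 1.

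The base composition around a gene's start is one feature that the choice of libraries did not use. RefSeq windows on GRCh38.p14 from 250 bases before to 50 bases after the annotated start were at hand for 13927 of the protein-coding genes. They are shown for *FGFR4* (chr5:177086665-177086964, plus strand) and *FOXA1* (chr14:37595200-37595499, minus strand), which were highly expressed, for *AZGP1* (chr7:99975982-99976281, minus strand), which was also highly expressed from a window of another composition, and for *KIT* (chr4:54657707-54658006, plus strand), which had no read. Capitals mark each CG, the pair of bases at which DNA is methylated, which reads the same on both strands.
FGFR4: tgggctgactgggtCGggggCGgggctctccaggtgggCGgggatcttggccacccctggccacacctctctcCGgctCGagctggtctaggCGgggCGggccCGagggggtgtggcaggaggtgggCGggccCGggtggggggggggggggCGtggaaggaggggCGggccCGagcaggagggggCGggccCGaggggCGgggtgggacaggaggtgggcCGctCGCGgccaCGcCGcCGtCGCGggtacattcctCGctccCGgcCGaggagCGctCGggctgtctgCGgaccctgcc
FOXA1: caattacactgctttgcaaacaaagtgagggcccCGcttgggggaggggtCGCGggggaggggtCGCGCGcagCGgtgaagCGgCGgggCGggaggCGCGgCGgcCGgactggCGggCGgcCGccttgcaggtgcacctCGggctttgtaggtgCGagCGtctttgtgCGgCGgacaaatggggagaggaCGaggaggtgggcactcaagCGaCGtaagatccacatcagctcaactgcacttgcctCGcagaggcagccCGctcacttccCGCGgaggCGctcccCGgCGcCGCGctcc
AZGP1: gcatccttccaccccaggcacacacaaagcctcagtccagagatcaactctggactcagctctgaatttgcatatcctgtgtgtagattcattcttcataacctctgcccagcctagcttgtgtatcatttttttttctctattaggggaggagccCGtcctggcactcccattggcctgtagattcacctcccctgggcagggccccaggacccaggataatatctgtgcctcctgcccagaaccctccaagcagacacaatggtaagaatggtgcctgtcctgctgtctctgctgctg
KIT: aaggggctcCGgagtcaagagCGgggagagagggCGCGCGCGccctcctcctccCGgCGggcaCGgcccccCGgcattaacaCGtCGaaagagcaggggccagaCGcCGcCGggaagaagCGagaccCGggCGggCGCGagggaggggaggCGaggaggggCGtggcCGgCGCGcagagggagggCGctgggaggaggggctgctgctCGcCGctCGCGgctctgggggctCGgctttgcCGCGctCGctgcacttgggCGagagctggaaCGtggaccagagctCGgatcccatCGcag
The window of *FGFR4* held 30 CG pairs, that of *FOXA1* 34, that of *AZGP1* 1 and that of *KIT* 38. Over all 13927 windows the median was 23. By level it rose from 8 among the 531 genes with 0 reads and 14 at mean values from 0.1 to under 1 to 23 from 1 to under 10, 27 from 10 to under 100 and 28 among the 2024 genes at 100 or more. The letters TATAAA, read on the strand of the gene, stood in 13.2% of the windows of genes with 0 reads and in 3.61% of those at 100 or more, against 5.80% of all windows. Counted on either strand these shares were 16.9%, 5.04% and 8.20%. *KIT* and *AZGP1* were chosen as exceptions after their values were seen. *KIT* was one of 74 of the 531 unread genes with 30 or more CG pairs, and *AZGP1* one of 83 of the 2024 genes at 100 or more with 5 or fewer. A gene can start elsewhere, so a count describes only these letters of 1 window per gene.

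A mean value of at least 1 was reached by 12710 of 22807 genes (55.7%) and at least 10 by 9458. At least 100 was reached by 2485 genes (10.9%) and at least 1000 by 60. At the other end 6775 genes (29.7%) stayed under 0.1, of which 1324 had no read in any library. Among long noncoding RNA genes 536 of 2892 (18.5%) reached 1, against 11583 of 17321 (66.9%) protein-coding genes. Of the protein-coding genes 14.2% reached 100 and 21.5% stayed under 0.1. The counts over gene lists given below were not tested and are to be read against these shares. The 100 highest genes held 44.7% of the summed level per kilobase, with 47.9%, 47.3% and 38.4% in the single libraries. Mitochondrial genes made up much of it, since without them the 100 highest genes held 20.1%. Of the 20 highest genes 15 were mitochondrial, 1 coded for a ribosomal protein and 4 were others. All mitochondrial genes together took 17.7%, 17.5% and 11.1% of the values in replicates 1 to 3.

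The highest nuclear gene was *PEG10*, a paternally expressed gene derived from a retrotransposon. Its values were 11854, 6513 and 4840.4, and replicate 1 was 2.45 times as high as replicate 3. Per kilobase it was the highest nuclear gene in replicates 1 and 2, while *LINC00674* and *GAPDH* stood above it in replicate 3. *SGCE*, the imprinted gene that lies head to head with it on chromosome 7, had values of 43.2, 36.9 and 34.2. The next were *LINC00674*, *GAPDH* for glycolysis, *FTH1* for iron storage and *RPL41* of the ribosome. *LINC00674* has an annotated transcript of 160 bases, so its level per kilobase is uncertain. Among the genes just below were *ALDOA* of glycolysis and the chaperone gene *HSPA8*. *S100A14*, an epithelial calcium-binding protein gene, stood at rank 30 with values of 1226, 1047 and 1139.5.

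**Figure D1:**
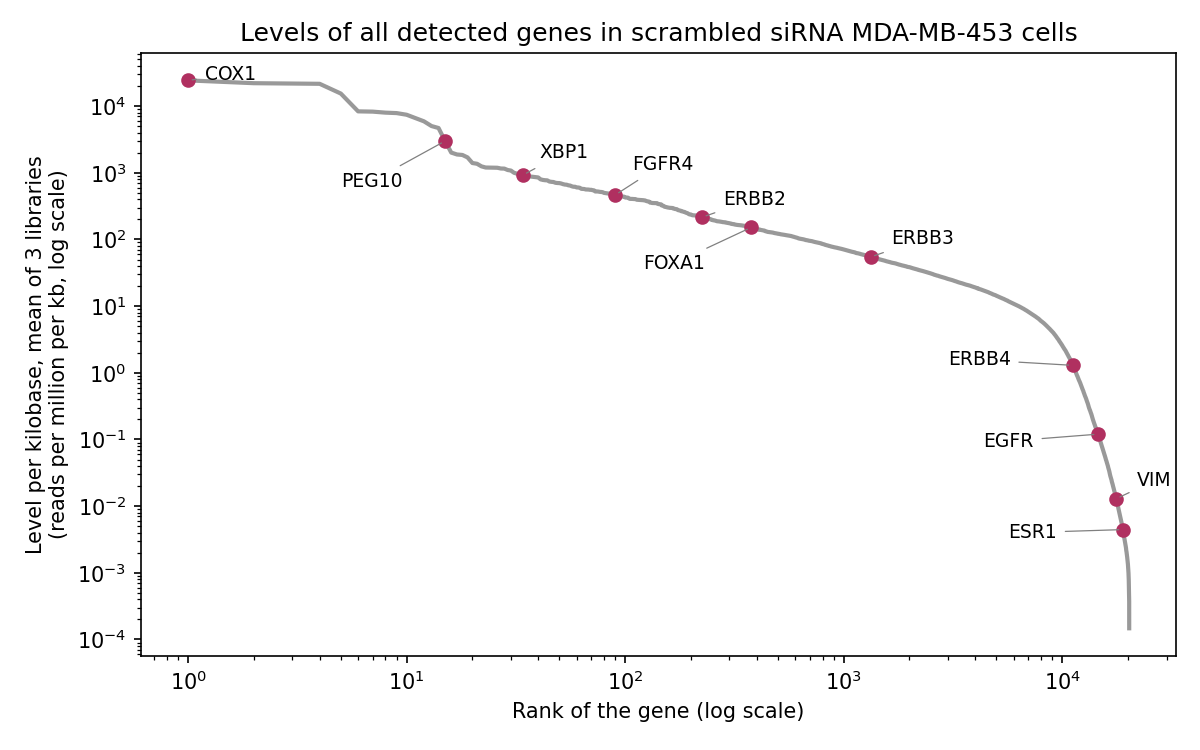
Level per kilobase of each detected gene (mean of 3 scrambled siRNA libraries, log scale) against its rank (log scale), with 11 genes marked as points. COX1 leads at rank 1 and PEG10 is the first nuclear gene at rank 15, the ERBB2, FGFR4 and FOXA1 points lie within the first 400 ranks, and ESR1 and VIM lie on the steep end of the curve.

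Among the 4 ERBB receptors the order per kilobase was *ERBB2*, *ERBB3*, *ERBB4* and *EGFR*, and no neighbours in this order overlapped. *ERBB2* stood 3.95 times above *ERBB3*, with single libraries from 3.74 to 4.35. *ERBB3* stood 42.2 times above *ERBB4*, which had values of 15.8, 13.6 and 17.5. *EGFR* was nearly silent at 1.18, 1.42 and 0.976. Their ligands were low throughout. Of 11 ligand genes 4 reached a mean value of 1 and 3 stayed under 0.1, against 55.7% and 29.7% of all genes. *NRG3*, a neuregulin that binds ERBB4, was the highest with values of 17.5, 22.6 and 22.8, followed per kilobase by the EGFR ligand genes *EPGN* (11.8, 8.64 and 11.03) and *AREG* (3.51, 3.14 and 2.04). *EGF* reached 1.76, 1.801 and 1.603. *HBEGF*, *BTC*, *TGFA* and *NRG4* had means between 0.1 and 1. *NRG1*, which codes for the main ligand of ERBB3, had 0, 1 and 0 reads in replicates 1 to 3, and *NRG2* and *EREG* also stayed under 0.1. The cells had transcripts of the neuregulin receptor and next to none of *NRG1*.

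Within 250000 bases on either side of *ERBB2* the table held 16 other genes, and 10 of them reached a mean value of 1. None had a level per kilobase above that of *ERBB2*. The nearest were *MIEN1* at 47.2 ± 3.71 and *ORMDL3* at 46.5 ± 4.45 (SD, n = 3), below *ERBB2* at 216 ± 20.7. *MIEN1* lies next to *ERBB2* and codes for a protein of cell migration. *GRB7*, an adaptor that binds HER2, was at 31.97 ± 2.496, and the lipid carrier gene *STARD3* at 33.2 ± 3.65. *PGAP3*, whose span on the chromosome lies just before that of *ERBB2*, was at 9.28 ± 2.396. *NEUROD2*, *PPP1R1B* and *GSDMA* in the same window were under a mean value of 0.1. Over the wider list of 25 measured genes on 17q12 and 17q21, *ERBB2* included, 19 reached 1 and 5 reached 100. The shares of all genes were 55.7% and 10.9%. In that list *PSMD3* of the proteasome was second to *ERBB2* per kilobase, at values of 278, 283 and 316.

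Beyond the ERBB family, 43 receptor tyrosine kinase genes were measured. Of these 21 reached a mean value of 1 and 4 reached 100, near the shares of all genes (55.7% and 10.9%). After *FGFR4* came the collagen receptor *DDR1* (266, 274 and 294), the macrophage stimulating protein receptor *MST1R* (115, 103 and 166), *PTK7* (89.4, 108 and 119) and the ephrin receptor *EPHB3* (62.2, 72.98 and 69.1). *IGF2R*, the mannose 6-phosphate receptor, stood in the same list but has no kinase domain, was left out of these counts, and had values of 279, 279 and 318. The other receptors for fibroblast growth factors were far below *FGFR4*, which stood 63.5 times above *FGFR1* per kilobase, with 53.8 to 69.0 in single libraries. *RET* had values of 39.2, 64.6 and 58.01. *MET* was under 1 in every library, at 0.268, 0.479 and 0.506. Of the 17 receptor genes under 0.1, *KIT* and *NTRK3* had no read, and the others included *AXL*, *PDGFRA*, *FLT1*, *KDR*, *CSF1R*, *ALK*, *ROS1*, *NTRK2*, *EPHB1*, *EPHB6*, *TEK*, *TIE1*, *INSRR* and *MUSK*.

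Steroid receptor genes were unequal. *ESR1*, estrogen receptor alpha, had 1, 3 and 1 reads, at or under the 3 reads that 0 would allow in each library. *PGR*, the progesterone receptor and a classical target of estrogen receptor alpha, was at 1.93, 2.32 and 1.88, and *ESR2* at 1.31, 1.17 and 1.14. *NR3C1*, the glucocorticoid receptor, was at 139, 142 and 168. Of 21 measured nuclear receptors 18 reached 1 and 6 reached 100. The highest of them per kilobase were the fatty acid sensor *PPARD* (260.3, 225 and 198), the orphan receptor *NR2F1* (274, 188 and 217) and the vitamin D receptor *VDR* (270.1, 253 and 236), and *RXRA* was also among the 6 highest. *NR5A2* was the other receptor under 0.1.

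Of 19 luminal and apocrine transcription factors 18 reached a mean value of 1 and 12 reached 100. *XBP1*, a factor of secretory cells, was the highest at 1709, 1605 and 1644 and rank 34. *GATA3*, which specifies luminal cells, had values of 885, 887 and 619 and rank 187, and *SPDEF* followed at 332, 368 and 258. *TFAP2A* reached 379, 316 and 255 and *CREB3L4*, a membrane-bound factor, 152, 151 and 211. *GATA3*, *SPDEF* and *FOXA1* were each lowest in replicate 3, by less than 1.5-fold. *ELF5*, the factor of milk-forming alveolar cells, stayed under 0.1 with 1, 2 and 2 reads. *CREB3L1* was the one factor of the list past 1.5-fold, at 35.5, 50.9 and 12.2, with replicate 3 apart below.

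Keratins of simple and luminal epithelium were high in every library. *KRT19* (988, 901 and 618), *KRT8* (651, 715 and 467), *KRT18* (500.0, 495 and 442) and *KRT7* (492, 509 and 442) were joined in the 6 highest of their list by the surface markers *CD24* (528, 695 and 648) and *EPCAM* (289, 301 and 214). Of the 18 measured luminal keratins and surface markers 13 reached 1. Those that did not were *MUC1* (0.788, 1.19 and 0.578), *CEACAM6*, *PROM1*, *SCUBE2* and *KIT*. The basal keratins were at the other end, with *KRT5* at 0.5802, 0.9197 and 0.711 and *KRT14* at 2, 3 and 3 reads. Of 21 basal and myoepithelial markers 11 reached 1, near the share of all genes (55.7%). Only *SFN* reached 100, at 139, 150.1 and 142, against 10.9% of all genes. *SFN* codes for 14-3-3 sigma, which many epithelial cells express. *CDH3* (20.4, 18.01 and 23.5), *MME* (45.8, 15.5 and 9.48) and *TP63* (15.2, 8.14 and 6.97) were next. *TAGLN*, also among the 6 highest, stayed under 10. *CAV2* had no read, and *CNN1* and *NGFR* stayed under 0.1.

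**Figure D2:**
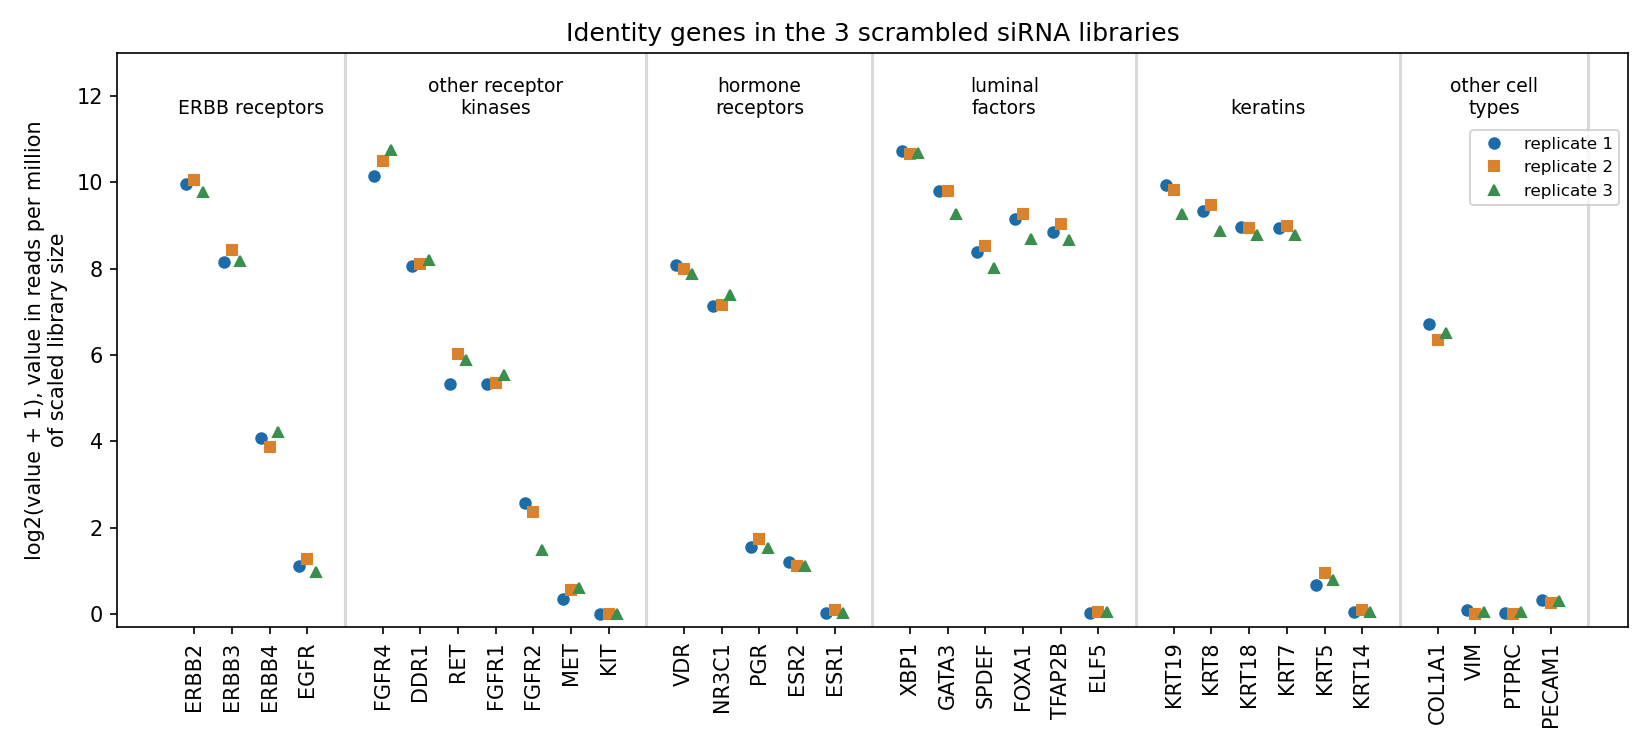
Values of 32 genes of receptors, lineage factors, keratins and other cell types in the 3 scrambled siRNA libraries, as log2(value + 1), with 1 symbol per library. ERBB2, FGFR4, the luminal factors other than ELF5 and the luminal keratins sit at the top in all libraries. KIT, ESR1, ELF5, KRT14, VIM and PTPRC sit at or near 0.

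Of 30 measured genes for products of apocrine and secretory breast cells, 13 reached 1 and 11 stayed under 0.1. The shares of all genes were 55.7% and 29.7%. *AZGP1*, a zinc-binding glycoprotein of apocrine secretions, had values of 425, 583 and 388, and *AGR2*, a disulfide isomerase of secretory cells, 385, 442 and 248. *FASN*, fatty acid synthase, had 1558, 1111 and 1286, and the chaperone gene *CLU* 374, 388 and 235. *MUCL1*, a small breast mucin, had 22.4, 33.2 and 19.2, and the mammaglobin gene *SCGB2A2* 10.2, 11.5 and 12.4. *PIP*, prolactin-induced protein, a common apocrine marker, was at 1.28, 1.42 and 1.05. *APOD* and *LTF* stayed under 0.1, as did the milk protein genes *CSN2* and *CSN1S1*, the steroid-conjugating genes *UGT2B11*, *UGT2B15* and *UGT2B28*, and *HPGD*, *ALOX15B* and *AGR3*, the last with no read.

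Junction genes were expressed almost without exception, with 27 of 29 at 1 or more, 13 at 100 or more and none under 0.1. The splicing factors of epithelial isoforms, *ESRP1* (472, 443 and 411) and *ESRP2* (354, 352 and 291), were among the highest, with *CTNNA1* (375, 379.7 and 417), *JUP* (245, 295 and 210.1), *CLDN4* (93.5, 119 and 144) and *PKP4* (326, 278 and 251). *CDH1*, E-cadherin, was lower, at 48.2, 56.8 and 47.4 and rank 6101. Mesenchymal genes were near absent. Of 23 measured 3 reached 1 and 17 stayed under 0.1. *VIM*, the intermediate filament of mesenchymal cells, had 4, 0 and 2 reads, and *CDH11* had none. *COL1A1* was the exception at 105, 80.7 and 90.9, while its partner chain *COL1A2* had 0.134, 0.0192 and 0.0121 and *COL3A1*, *SPARC* and *LUM* were under 0.1. *CDH2*, N-cadherin, was at 7.96, 6.94 and 11.97 and *FN1* at 4.28, 4.12 and 3.08. *SNAI1*, *S100A4* and *ZEB1* did not reach 1.

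Markers of other cells were checked in the same way. Of 18 measured blood cell markers 2 reached a mean value of 1, *MZB1* (43.3, 24.8 and 31.1), a chaperone gene known from plasma cells, and the lysosomal *CD68* (5.47, 5.08 and 4.43). The defining leukocyte gene *PTPRC* (CD45) had 1, 0 and 3 reads, and *CD3G*, *TYROBP*, *FCGR3A* and *HBB* had none. One of 11 endothelial markers, *ESAM*, reached 1, at 1.32, 1.09 and 1.12, and *KDR*, *CDH5*, *TEK*, *TIE1*, *EMCN* and *ERG* stayed under 0.1. None of the 15 cancer testis genes measured reached 1, and *PRAME*, *SSX4*, *CT45A1* and *GAGE12J* had no read. Of 26 genes typical of nerve, liver, muscle, lung or kidney 4 reached 1, namely *CYP2E1* (2.901, 5.96 and 2.88), *MBP* (4.98, 4.599 and 3.39), *TNNT2* (1.37, 1.59 and 1.89) and *SYP* (0.818, 1.44 and 1.01), and 17 stayed under 0.1. Summed over its members, the blood list reached 50.5, 31.3 and 36.9 in replicates 1 to 3 and the endothelial list 2.16, 2.05 and 2.23. The mesenchymal list reached 119, 94.1 and 108, which was mostly *COL1A1*, and the basal list 247, 223 and 214, which was mostly *SFN*.

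HOX genes keep a record of position along the body axis. Of 39 listed 27 were measured, so the clusters are seen in part. The measured genes were expressed from 1 of their 4 clusters in the main. Of the 9 measured HOXC genes 8 reached a mean value of 1. *HOXC10* led with 127, 159 and 135, followed per kilobase by *HOXC13* (45.7, 37.8 and 34.02) and *HOXC11* (47.98, 42.4 and 40.3). *HOXC12* lies between the last 2 and had 0, 0 and 3 reads. *HOXC6* (17.8, 14.8 and 8.15) and *HOXC4* (12.99, 10.2 and 10.4) were lower. The HOXC genes summed to 277, 285 and 244 in replicates 1 to 3. In the HOXB cluster 2 of 5 measured genes reached 1, *HOXB2* (14.3, 16.9 and 13.6) and *HOXB3*, and the sums were 21.9, 26.4 and 20.9. None of the 7 HOXA and 6 HOXD genes reached 1, and their sums stayed under 1 in every library. *HOTAIR*, a long noncoding RNA transcribed from within the HOXC cluster, had values of 14.995, 16.02 and 11.7.

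**Figure D3:**
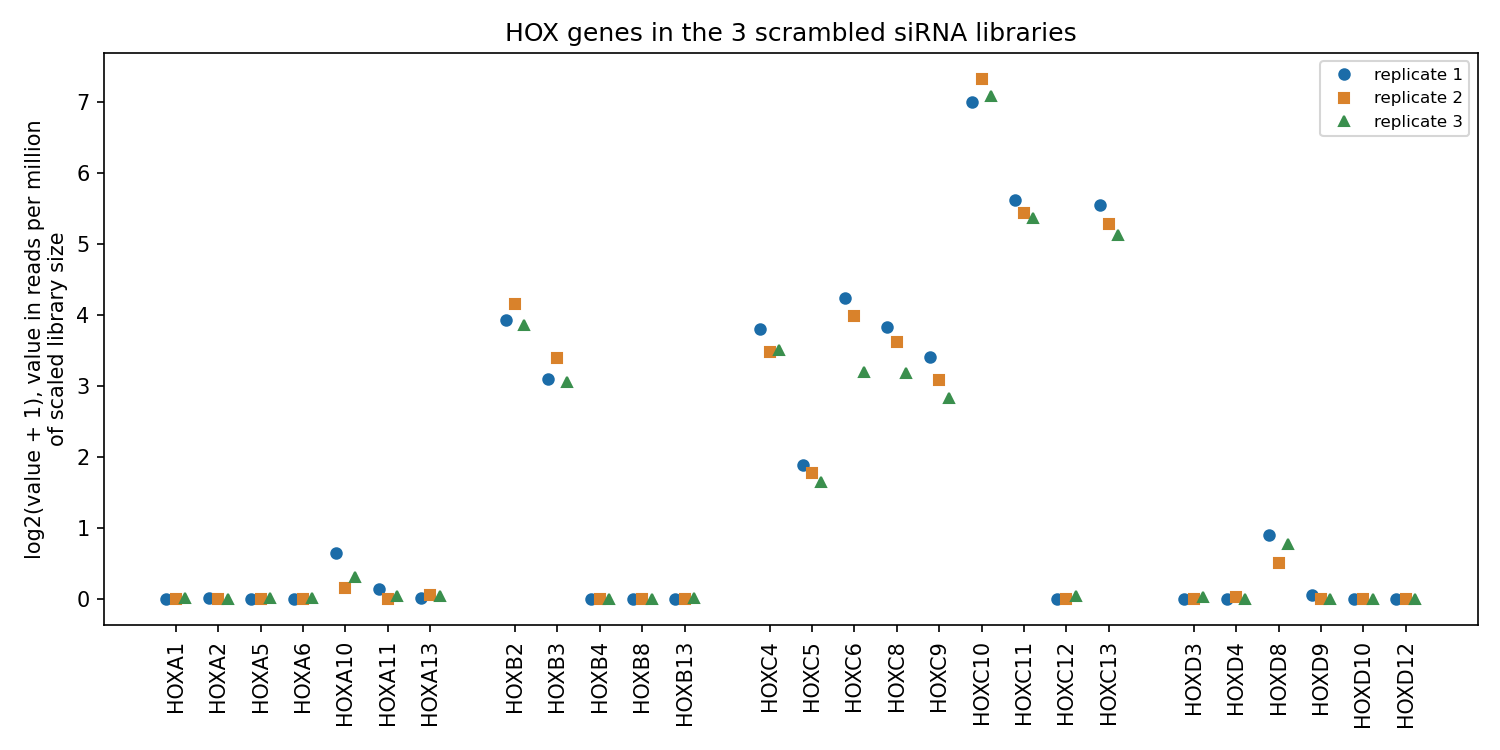
Values of the 27 measured HOX genes in the 3 scrambled siRNA libraries as log2(value + 1), ordered by cluster (A to D) and by number, with 1 symbol per library. Symbols rise above 1 for 8 of the 9 HOXC genes and for HOXB2 and HOXB3, and stay below 1 for every HOXA and HOXD gene.

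Of the 22 listed genes from RAS to ERK all 22 reached 1 and 9 reached 100, against 55.7% and 10.9% of all genes. The adaptor *GRB2* (657, 718 and 456) was the highest per kilobase, followed by *YWHAB*, *HRAS* (135, 126 and 144), *MAPK3* and *PTPN11*. MAP kinase phosphatases shut off ERK, p38 or JNK by dephosphorylation. Of the 10 measured 9 reached 1. *DUSP5*, the ERK phosphatase of the nucleus, was the highest per kilobase at 159.7, 111 and 147, and *DUSP4* had 315, 248 and 256. *DUSP6*, the cytoplasmic ERK phosphatase that the study depletes, had 209, 110.1 and 114 and rank 1912, with replicate 1 apart above. *DUSP16* (126, 164 and 128) and *DUSP10* (50.6, 57.98 and 50.7) act on JNK and p38. *DUSP1* (25.9, 23.5 and 21.5), *DUSP7* (31.4, 30.3 and 27.3), *DUSP2* (10.5, 6.67 and 13.6) and *DUSP8* (11.3, 16.02 and 12.1) were lower, and *DUSP9* was under 0.1.

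Of 20 ERK targets and feedback genes, 19 reached a mean value of 1 and 9 reached 100. The antiapoptotic gene *IER3* (144, 124 and 146), *CCND1* (385, 338 and 326) and *EGR1* (221, 189.6 and 123) were the highest per kilobase, and *MYC* had 202, 116 and 145. The feedback inhibitors were represented by *SPRED2* (223, 195 and 177), *SPRY4* (115, 121 and 101), *SPRED1* (86.3, 98.6 and 85.3) and *SPRY1* (33.9, 37.9 and 36.2), with *SPRY2* (2.71, 2.49 and 2.99) and *SPRED3* (3.15, 3.99 and 2.796) low. The ETS factors that ERK induces were also low, with *ETV4* at 11.6, 2.45 and 3.64, *ETV1* at 8.99, 4.75 and 5.72 and *ETV5* at 6.47, 4.98 and 5.399. The ephrin receptors *EPHA2* (26.4, 23.3 and 27.2) and *EPHA4* (30.1, 25.5 and 24.8) lay between. *PHLDA1* was at 2.14, 2.09 and 2.31, and *FOSL1* did not reach 1. Of 30 immediate early genes 25 reached 1. *JUNB* (77.3, 96.5 and 70.9), *ZFP36* (75.1, 87.8 and 59.5), *MYC* and *JUND* (58.8, 61.9 and 48.8) followed *IER3* and *EGR1* per kilobase, and *EGR4* was under 0.1.

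Among PI3K and AKT genes 25 of 28 reached 1 and 14 reached 100, against 55.7% and 10.9% of all genes. *AKT1* had values of 484, 394 and 603 and stood 6.57 times above *AKT2* per kilobase. The translation repressor *EIF4EBP1* (102, 77.2 and 104), *RPS6KB2*, and the regulatory subunits *PIK3R2* (227, 242 and 244) and *PIK3R3* (274, 331 and 294) were next. *IRS1*, the adaptor of the insulin receptor, had 244, 166 and 212, and its relative *IRS2* 5, 3 and 2 reads. Of 36 cell cycle genes 34 reached 1 and 17 reached 100. *PCNA* (185, 147 and 171), *MYBL2* (381, 251 and 328), *CCND1*, *PLK1* (195, 154 and 139), *CCNB1* (122, 122 and 134) and *FOXM1* (226, 217 and 193) led per kilobase. Of the D cyclins, *CCND2* had no read. Of 31 apoptosis regulators 28 reached 1 and 2 reached 100, against 55.7% and 10.9% of all genes. The 2 were *MCL1* (185, 307 and 274) and *BCL2L1* (177, 158 and 147), both inhibitors of mitochondrial cell death, and *HRK* was under 0.1.

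Metabolic and stress genes stood high in the ranking. Of 23 lipid synthesis genes 22 reached 1 and 17 reached 100, with a median rank of 1679. The desaturase gene *SCD* (1468, 686 and 1218) was the highest per kilobase, and *FASN*, *SQLE*, *FDPS* and *FDFT1* were among the 6 highest with it. Of 24 genes of the integrated stress and unfolded protein response 23 reached 1, with *XBP1*, *CALR* (993, 970.2 and 884), *ATF4* (632, 610.1 and 645), *HSP90B1*, *HSPA5* (1229, 1301 and 1247) and *TRIB3* leading. Of the 15 listed genes of the microRNA and siRNA machinery all 15 reached 1, against 55.7% of all genes. *AGO2*, the slicing Argonaute, had values of 293, 363 and 318 and *DICER1* 315, 258 and 218, while *TSN*, *XPO5* and *PRKRA* were among the 6 highest per kilobase with them.

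Class I antigen presentation was unequal between its genes. *B2M*, the light chain, had values of 340.5, 313 and 336. The heavy chain gene *HLA-C* had 124, 120.0 and 151 and stood 30.2 times above *HLA-B* per kilobase, with 28.9 to 31.5 in single libraries. *HLA-B* was at 4.03, 3.79 and 5.22. These genes are near-identical and highly variable between people, so reads can be lost or shared among them, and the ratios are uncertain. The class II genes *HLA-DRA*, *HLA-DRB1*, *HLA-DPB1* and *HLA-DQA1* and the invariant chain gene *CD74* were all under 0.1.

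Of the long noncoding RNA genes the highest per kilobase after *LINC00674* were the small nucleolar RNA hosts *SNHG29* (205, 207 and 247) and *SNHG16* (135, 119 and 204), *BCYRN1* (42.6, 27.96 and 31.9) and *GAS5* (70.9, 59.7 and 104). *BCYRN1* has copies across the genome. *FGD5-AS1*, *MALAT1* (707, 739 and 792), *SNHG1*, *NORAD* (229, 349 and 307) and *MIR9-3HG* completed the first 10. *MALAT1*, which stays in the nucleus, had the highest value of the 10, but it is 10434 bases long and stood at rank 985.

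The libraries were close to each other across genes. On log2(value + 1) of the 12710 genes, Pearson's r was 0.990 between replicates 1 and 2, 0.986 between 1 and 3 and 0.986 between 2 and 3, given as a description since genes are not independent. The biological coefficient of variation, the spread between libraries beyond counting error as edgeR estimates it, was 0.172. The median gene differed by 1.25-fold between its highest and its lowest library. Past 1.5-fold were 1910 of 12710 genes (15%). Replicate 3 was the library apart more often than the others. It was apart above in 495 genes (3.89%) and below in 414 (3.26%), against 222 (1.75%) and 283 (2.23%) for replicate 1 and 187 (1.47%) and 309 (2.43%) for replicate 2. Between replicates 1 and 2 alone, 656 genes (5.16%) were past 1.5-fold, against 1040 (8.18%) between 1 and 3 and 1027 (8.08%) between 2 and 3.

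Read against the 15% of all genes, the lists of identity genes lay on both sides. Of the luminal and apocrine factors at 1 or more 5.56% were past 1.5-fold, of the PI3K and AKT genes 4%, of the nuclear receptors 11.1% and, near the share of all genes, 13.6% of the genes from RAS to ERK. None of the ERBB receptors was. Higher shares were seen in the interferon induced genes (57.7%, 15 of 26), the secreted and apocrine products (53.8%, 7 of 13), the immediate early genes (40%, 10 of 25), the luminal keratins and surface markers (38.5%, 5 of 13), the other receptor tyrosine kinases (28.6%, 6 of 21, *FGFR4* among them) and the epithelial junction genes (22.2%, 6 of 27). The share was also higher in the microRNA and siRNA machinery (33.3%, 5 of 15), the integrated stress and unfolded protein response (30.4%, 7 of 23) and the ERK targets (26.3%, 5 of 19). It was lower in the lipid synthesis genes (9.09%) and the apoptosis regulators (10.7%). These shares are counts of a few genes and were not tested. Of the 13 secreted and apocrine products 3 were apart below in replicate 3 and past 1.5-fold, *CLU*, *AGR2* and *PRLR*. That list also holds genes whose products are not secreted, such as *FASN* and the prolactin receptor gene *PRLR*. Of the 13 luminal keratins and surface markers 2 were apart below in this way, *KRT19* and *KRT8*. The share of all genes was 3.26%. Among 25 housekeeping genes 7 (28%) were past 1.5-fold. Among genes that reached 10, the 5 of smallest spread were *IPO8* (85.8, 85.8 and 85.7), *LRRC59* (399.6, 399.6 and 400.5), *TXNIP* (233, 232 and 233), *RUNDC1* (25.5, 25.6 and 25.6) and *MAPKBP1* (30.9, 30.8 and 30.9). Of these, *IPO8* is a nuclear import receptor that is used as a reference gene.

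**Figure D4:**
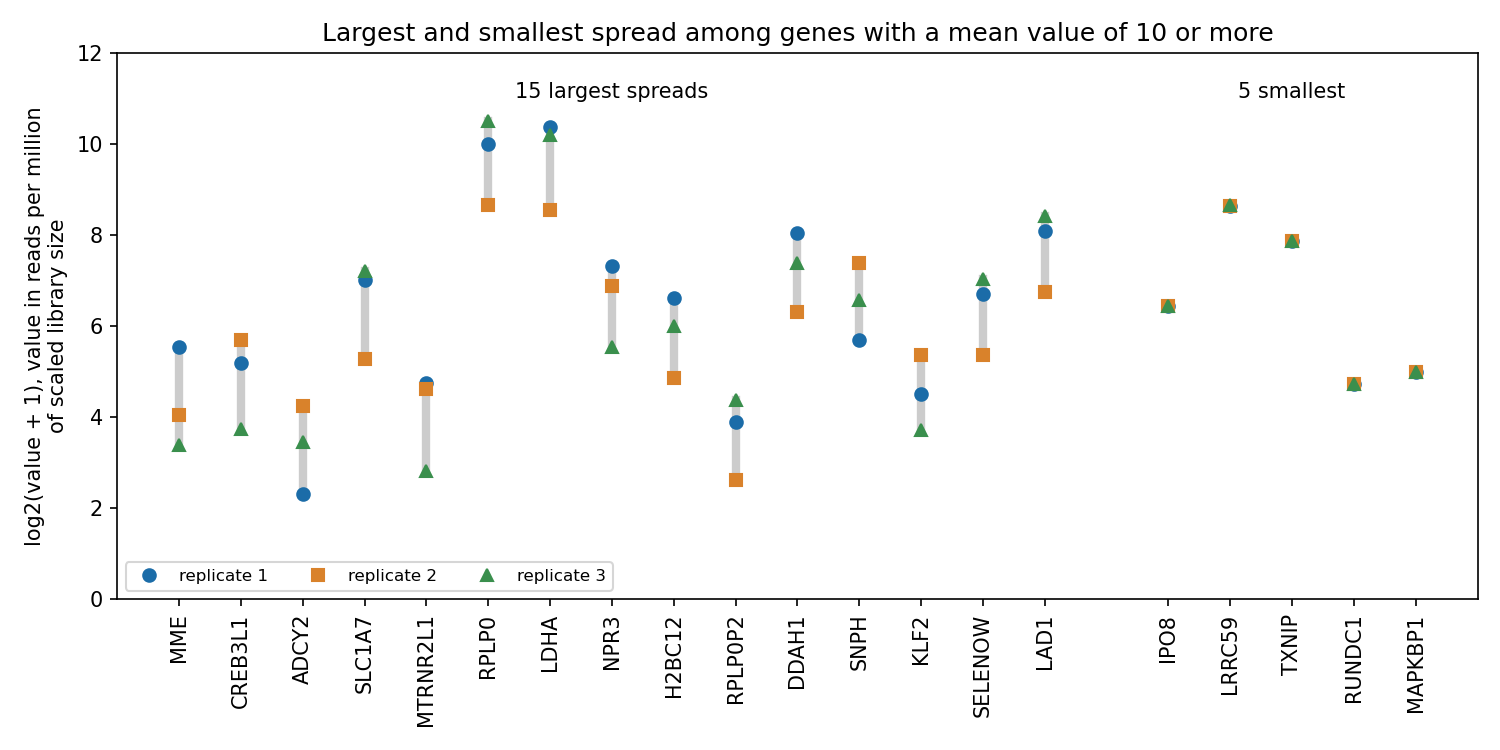
Values of the 15 genes with the largest and the 5 with the smallest spread among genes whose mean reached 10, as log2(value + 1), with 1 symbol per library and a grey bar from the lowest to the highest. MME is highest in replicate 1, RPLP0, LDHA and SLC1A7 are lowest in replicate 2, CREB3L1 and NPR3 are lowest in replicate 3, and the symbols of the last 5 genes coincide.

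Replicate 1 stood above the other libraries in single genes and more often than over all genes in some lists. *MME*, the membrane peptidase CD10, had the largest spread of the 9458 genes, at 45.8, 15.5 and 9.48. *ADORA1* (95.1, 33.8 and 52.4), an adenosine receptor, *S100A9* (152, 54.9 and 74.8), a calcium-binding protein of inflammation, *KCNK2* (54.7, 32.1 and 20.2), a potassium channel, and *RARRES1* (22.3, 7.89 and 8.92) followed. *PEG10* was also highest there. In the list of ERK targets and feedback genes, replicate 1 was apart above and past 1.5-fold in 4 of 19 genes (*DUSP6*, *MYC*, *ETV4* and *ETV1*), against 1.75% of all genes. It was highest in 11 of 19, against 33.4% of all genes. Its ratio to the mean of the others had a median of 1.20 over the 19 genes and 0.998 over all. Being highest in replicate 1 was not particular to this list. It was seen in 18 of 34 cell cycle genes, 12 of 25 immediate early genes and 7 of 10 HOX genes, but in 2 of 26 interferon induced genes. Against the other libraries, replicate 1 also had genes that were low. Its lowest genes against the others were *ADCY2* (3.91, 17.9 and 9.89), an adenylate cyclase, *SNPH* (50.5, 167 and 94.7), which anchors mitochondria in axons, *TP53INP1* (29.9, 95.7 and 54.1), a p53 target, *PTPMT1* (13.8, 41.5 and 41.04), a mitochondrial phosphatase, and *PYGO2* (38.9, 81.2 and 110.2) of WNT signaling. *PTPMT1* shares 51.4% of its transcript with another gene.

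Replicate 2 was marked by genes that were lower. *RPLP0*, a protein of the ribosomal stalk and a common reference gene, had values of 1019, 403 and 1459.6. Replicate 2 stood at 0.325 of the mean of the others for *RPLP0*, while the other 82 ribosomal protein genes that reached 10 ran from 0.598 to 1.13, with a median of 0.865. *RPLP0P2*, a processed copy that can take reads from *RPLP0*, went with it, at 13.9, 5.097 and 19.8. *LDHA*, lactate dehydrogenase A, had 1324, 371 and 1167. *SLC1A7*, a glutamate transporter, was at 129, 37.7 and 147 and the histone gene *H2BC12* at 97.5, 27.9 and 62.8. *DDAH1* (264, 78.3 and 167), an enzyme that degrades a methylated arginine, *SELENOW* (103, 40.4 and 130.0), a selenoprotein, and *LAD1* (273, 106 and 339), an anchoring filament protein, were likewise lowest in replicate 2. In the housekeeping list, replicate 2 was apart below and past 1.5-fold in 5 of 25 genes, against 2.43% of all genes. The genes highest in replicate 2 against the others were the Krüppel-like factor gene *KLF2* (21.7, 40.4 and 12.04), the glycosyltransferase gene *B3GNT9* (7.77, 16.7 and 5.89), *FAM217B* (18.6, 47.4 and 26.96), the calcium channel subunit gene *CACNG4* (13.7, 23.8 and 9.88) and *PRR36* (56.4, 86.8 and 39.8).

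Replicate 3 was lowest in *CREB3L1*, given above, in *NPR3* (159, 116 and 45.8), the clearance receptor for natriuretic peptides, in *GNG5* (88.6, 86.5 and 28.2), a G protein subunit, and in *MTRNR2L1* (25.6, 23.4 and 6.05) and *HNRNPCL2* (97.7, 86.1 and 30.6), both near copies of other genes (mitochondrial ribosomal RNA and *HNRNPC*) whose reads are uncertain. It was highest in *RPL13AP6* (10.5, 11.2 and 32.7), a ribosomal protein pseudogene, *MIR3654* (18.1, 22.4 and 51.5), *LTB4R* (17.1, 12.9 and 36.3), a leukotriene receptor, *LINC02067* (30.6, 29.5 and 77.7) and *FBXL6* (22.7, 19.2 and 50.2), a ubiquitin ligase subunit.

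Interferon induced genes were higher in replicate 3 as a group. Of 37 measured 26 reached a mean value of 1, and replicate 3 was the highest library in 22 of these, against 38% of all genes. It was apart above and past 1.5-fold in 14 of 26, against 3.89% of all genes. The ratio of replicate 3 to the mean of the others had a median of 1.55 over the list, with a range from 0.822 to 5.41, and of 1.01 over all genes. *IFI6*, an antiviral membrane protein gene, had values of 3.03, 1.82 and 13.1. *IFIT1*, which binds foreign RNA, had 4.58, 3.81 and 12.6, *OAS1*, a sensor of double-stranded RNA, 0.893, 0.6898 and 3.28, and the ubiquitin-like modifier *ISG15* 4.36, 4.31 and 10.3. The highest of the list per kilobase, *BST2*, which tethers virus particles to the cell, had 171, 143 and 233, and *IRF7* had 18.9, 21.2 and 33.2. *USP18* (53.7, 39.1 and 49.999), which trims the modifier *ISG15* from proteins, and the interferon signal transducer *STAT2* (52.4, 56.97 and 59.05) stayed within 1.5-fold, and *IFITM2* (24.7, 38.2 and 25.9) was highest in replicate 2. *XAF1*, *SAMD9L* and *EPSTI1* were under 0.1. Of the interferons themselves, *IFNB1* had 1, 0 and 10 reads in replicates 1 to 3 and *IFNL1* 1, 2 and 10, while *IFNA1*, *IFNL2* and *IFNL3* were under 0.1 as well. Of the 27 measured genes of interferons and double-stranded RNA sensing 17 reached 1, with *ADAR* (426, 432 and 492), *IRF3* (40.4, 41.1 and 52.1), *IFNGR1*, *TBK1* and *IFNAR1* highest per kilobase and *TLR3*, *TLR7* and *ZBP1* under 0.1.

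Mitochondrial transcripts moved the other way. Replicate 3 was the lowest library for all 13 mitochondrial protein genes, at 0.519 to 0.795 of the mean of the others, with a median of 0.570. *COX1*, a subunit of cytochrome oxidase, had values of 44023, 41061 and 27269.7, and *ND6* of complex I 4806, 5166 and 2586. With median of ratios scaling replicate 3 stayed the lowest for all 13. With quantile normalization it was the lowest for 5 of the 13. That method gives genes of equal rank the same value in every library, so it largely removes differences in the highest-ranked genes. The 68 nuclear genes of the respiratory chain and ATP synthase that reached 1, grouped by symbol after the values were seen, had a median ratio of 1.15, and replicate 3 was the highest library for 43 and the lowest for 12 of them. Replicate 3 was also the deepest library and the one with the largest share of reads on ribosomal protein genes, at 3.57% against 2.59% and 2.61%. The part of depth or of RNA composition in these differences was not tested.

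**Figure D5:**
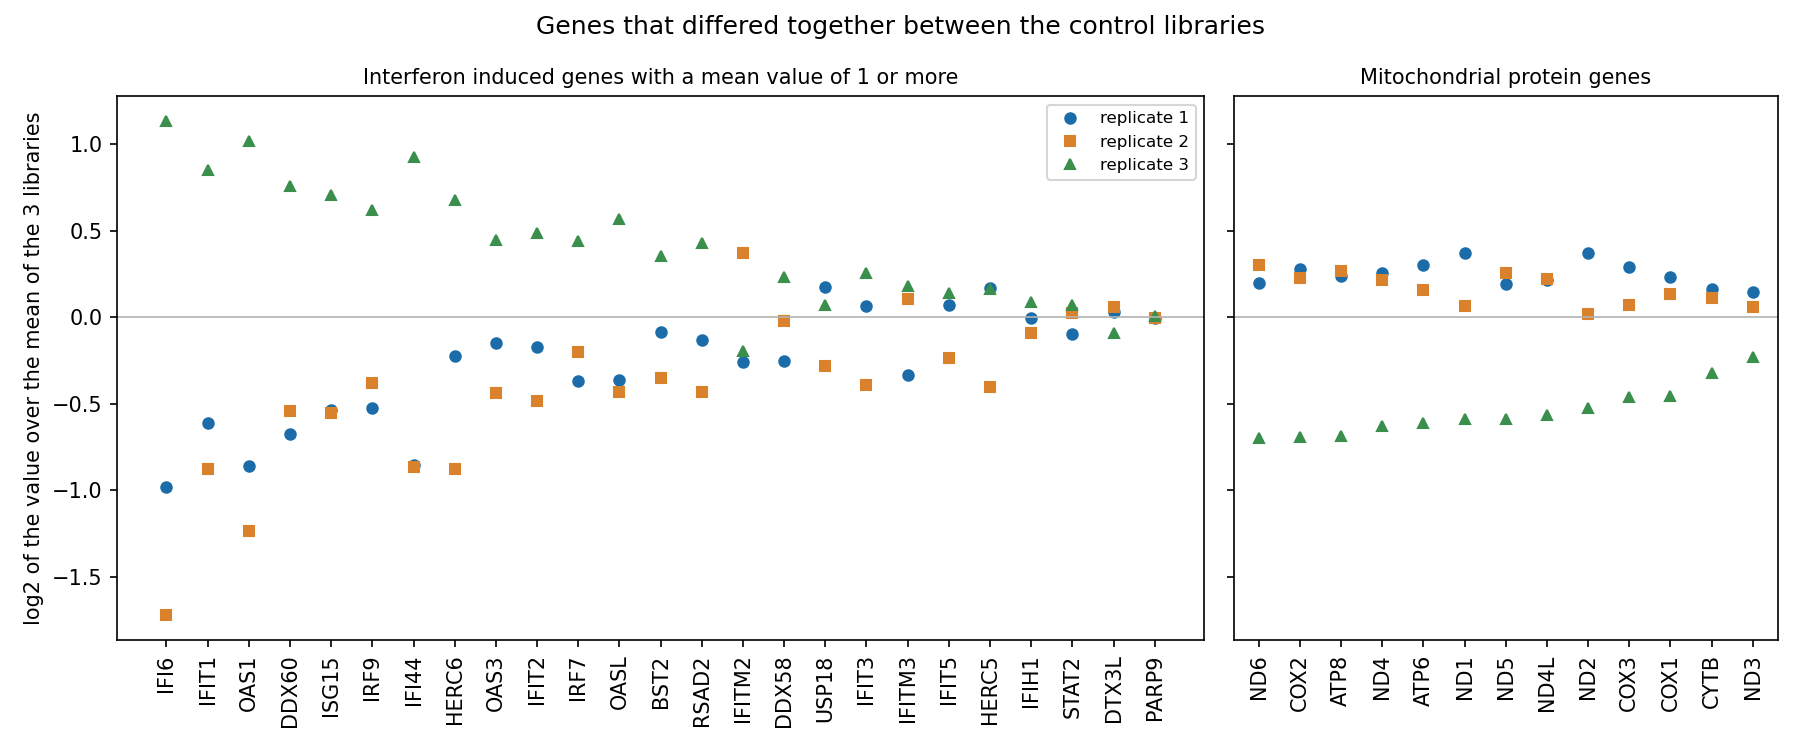
Log2 of the value in each scrambled siRNA library over the mean of the 3 libraries, for 25 of the 26 interferon induced genes whose mean reached 1 (left, by falling spread) and the 13 mitochondrial protein genes (right, by rising ratio of replicate 3), with 1 symbol per library. Replicate 3 lies above the other libraries for 21 of the 25 genes on the left and below them for all 13 on the right.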

How the data were processed

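RNA of 6 MDA-MB-453 libraries was sequenced on an Illumina NovaSeq after a stranded TruSeq preparation, and the 3 scrambled siRNA libraries were described here. Alignment to hg38 and assignment to RefSeq gene models were done by the authors in Rsubread at default settings, and their processing notes name bcl2fastq and edgeR. The strand setting is otherwise not given, so reads of a gene and its antisense partner cannot be told apart. The authors deposited 1 normalized signal value per gene and library. Within a library the values were whole multiples of 1 smallest step (100% of them, within 0.01 of a step), so the reads could be recovered, and the effective library size was taken from the step. The columns of the other 3 libraries were not used.

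Levels per kilobase used the Ensembl canonical transcript of GENCODE 44, matched by symbol and position for 21400 of 22807 genes, in place of the union of RefSeq exons that had been planned, since RefSeq exons were not at hand. RefSeq names and positions (GRCh38.p14) were held for 22359 gene IDs. Spread was the highest minus the lowest log2(value + 1) among genes whose mean value reached 1, called at 1.5-fold, and a library was apart when it lay farthest from the middle one. The pseudocount of 1 lowers the spread of genes with low values. The biological coefficient of variation came from edgeR 4.0.16 (R 4.3.3) on the recovered reads with an intercept alone. Other steps used Python 3.11.15 with pandas 2.3.3 and numpy 2.4.6. The spread rule and the edgeR fit were tested on simulated data of independent genes, with planted changes larger than 1.5-fold in 1 library. Smaller planted changes and shifts shared by a group of genes were not simulated. The members and the 30 gene lists were chosen with earlier results of these data known.

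The genes named were the 4 markers, the 20 highest per kilobase, the 6 highest of each list and its members under 0.1, all ERBB, ligand, phosphatase and ERK target genes, the 10 highest long noncoding RNAs, and, among genes with a mean of 10 or more, the 15 largest and 5 smallest spreads and the 5 genes that each library stood farthest above and below. Listed genes that the table does not hold were not analysed here, and some genes that the rule covers are not reported here, though counts over their lists include them. Chosen after their values were seen were *PRLR*, *AKT2*, *CDH1*, *CEACAM6*, *ESR2*, *FGFR1*, *HLA-B*, *HOTAIR*, *HOXB3*, *HSPA8*, *IFI6*, *IFIT1*, *IRS1*, *ISG15*, *KRT5*, *LDHB*, *LDHC*, *MET*, *MUC1*, *OAS1*, *PGAP3*, *PGR*, *PIP*, *PROM1*, *RET*, *S100A14*, *SCUBE2*, *SGCE*, *IGFBP5*, *MGP*, *CCN2*, *H3-3A*, *H3P6* and *MKI67*. The alternatives were thresholds of 0.5 and 10, a pseudocount of 0.1, no filter, median of ratios and quantile scaling, other transcript lengths, sums without ribosomal protein genes, and leaving out each library in turn. TMM scaling on the 3 libraries, the exon union and sums and counts without mitochondrial genes were added after seeing the data.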

Additional observations from a re-analysis of the deposited data

How the results depend on the processing

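No paired analysis was possible because no result comes from a test between groups and the 3 libraries are 1 group. Of 34 alternative values 27 stayed within 1.5 times the reported count or coefficient, or within 1 SD between libraries, and 7 moved past these limits. The rank of *ERBB2* per kilobase was 225 and depended on the length used, with 159 for the longest transcript and 293 for the union of exons, and ranged from 204 to 240 with a library left out. The share of the 100 highest genes was 44.7%, against 55.5% for the union of exons and 20.1% without mitochondrial genes. The number of genes past 1.5-fold fell from 1910 to between 655 (without replicate 3) and 1044 with a library left out, as a highest and a lowest of 2 libraries lie closer than of 3. With a pseudocount of 0.1 it was 2536. The coefficient of variation was 0.153 without replicate 3 and 0.180 without either of the others. Median of ratios scaling moved the median gene by at most 0.011 on the log2 scale and quantile normalization by at most 0.021. The number of interferon induced genes past 1.5-fold was 15 under both, and replicate 3 was highest in 22 and 21 of the 26 at a mean of 1 or more. The mitochondrial protein genes past it stayed at 11 with median of ratios scaling and fell to 3 with quantile normalization, which evens out the highest-ranked genes. In 4.75% of the genes at a mean of 1 or more the variance between libraries was under that of counting error. Below 0.1 a value rests on few reads, and the order of such genes has no meaning.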

Other observations

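Some further genes were seen in the ranking. *LDHA* was the only lactate dehydrogenase gene with a mean value above 100. *LDHB*, which codes for the other common subunit of the enzyme, had 2, 0 and 0 reads in replicates 1 to 3, and the testis form *LDHC* had values of 2.28, 1.02 and 1.55. With *LDHA* low in replicate 2, no other of these genes was higher there. *IGFBP5*, a secreted binder of insulin-like growth factors, had values of 861, 369 and 372, *MGP*, the matrix Gla protein, 168, 67.5 and 87.9, and *CCN2*, a matrix protein gene and target of YAP, 6.798, 2.49 and 2.25, each highest in replicate 1. The histone variant gene *H3-3A* had 100.1, 241 and 279 and was lowest there. The histone H3 pseudogene *H3P6* had 162, 370 and 341. Reads can be shared between such copies, so the values of both are uncertain. The proliferation marker *MKI67* had 847, 795 and 490.4 and was lowest in replicate 3. The cell cycle genes differed in this. Of the 34 that reached 1, replicate 3 was apart below and past 1.5-fold in 3, *MKI67* among them, and apart above in 2. It was the highest library in 11 of the 34, against 38% of all genes.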
